A study of Mus musculus with 6 samples.

Results

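Integrin subunit genes and tetraspanin genes were followed in long-term haematopoietic stem cells (LT-HSCs) of wild-type and Dcaf8 knockout mice. The members were the protein-coding genes named Itga or Itgb plus a letter or number, without Itga2b, the genes named Tspan plus a number, and Cd9, Cd37, Cd53, Cd63, Cd81, Cd82 and Cd151. Each had at least 1 count in at least 3 of the 6 libraries. Of 54 protein-coding genes with such names, 37 met this rule, 15 integrin and 22 tetraspanin genes, among 55357 gene identifiers in the table and 21137 with any count.

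The wild-type group was 3 young mice and the knockout group 3 young mice labelled Dcaf8 KO. Dcaf8 encodes a protein that recruits substrates to CUL4-DDB1 ubiquitin ligases. The sources used here do not state the exact age, the strain, the form of the knockout allele or any Cre driver. From each mouse 50 lineage-negative, Sca-1+, c-Kit+, CD150+, CD48- bone marrow cells were sorted and their mRNA was amplified as 1 library. No other treatment is named.

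Integrins are heterodimers of an alpha and a beta subunit that anchor cells to matrix proteins and to counter-receptors on other cells, and that signal through talin, kindlin and focal adhesion kinases. In the marrow the pairs alpha4-beta1 and alpha5-beta1 hold stem cells to VCAM-1 and fibronectin, and alpha6 pairs bind laminin. Tetraspanins are small proteins that cross the membrane several times and gather integrins, proteases and immune receptors into membrane domains. Several of them serve as surface markers of stem cells and blood lineages.

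The libraries held 14461864 to 22386387 counts. Dcaf8 stood at 262 ± 50.7 in wild-type and 52.6 ± 19.2 CPM (read counts relative to the library total) in knockout libraries (SD, n = 3 per group), and the lowest wild-type value, 204, lay above the highest knockout value, 74.3. Its adjusted p was 0.739 by edgeR and 1.89e-09 by DESeq2. CPM values here are scaled with TMM factors, which correct for library composition. Sums over marker lists are instead CPM of the total count, as is the sum over tetraspanin partners where so stated. All 10 LT-HSC markers were counted, with summed levels of 1538 to 2028 CPM, and Slamf1, which encodes CD150, stood at 104 to 174 CPM. By edgeR, 7 had fitted values above 0 and 3 below, and 0 passed. The genotypes did not overlap for 2 of them, against 10.3% of all genes tested. Ly6a stood at 131, 138 and 169 CPM in wild-type and 175, 217 and 215 CPM in knockout libraries, and Ctnnal1 at 80.3, 97.9 and 88.0 against 160, 114 and 137 CPM. Cd48 stood at 7.32, 11.9 and 0.0507 CPM in wild-type and 9.60, 34.7 and 16.6 CPM in knockout libraries, with overlap. Wild-type replicate 2 stood apart by neutrophil genes: the 14 listed markers summed to 7623 CPM there. In the other libraries they summed to 124 to 289 CPM, most of it from Prtn3, and Ltf did not exceed 0.558 CPM. Prtn3 stood at 112, 158 and 147 CPM in wild-type and 241, 277 and 203 CPM in knockout replicates 1 to 3, without overlap. It was the 1 of 8 tested markers with a fitted value above 0 (edgeR adjusted p = 0.739), against 7 below. The endothelial and stromal lists did not exceed 14.4 and 20.01 CPM. Fewer cells of a type and less RNA per cell cannot be told apart in such bulk libraries.

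The whole table was fitted with edgeR's quasi-likelihood test, and p-values were adjusted by Benjamini-Hochberg over all genes tested. Of 14592 genes tested, 0 passed an adjusted p under 0.05, which is 0% of them, so no member passed either. Of the 37 members 34 were tested and 3 were counted too thinly. The unadjusted p was under 0.05 for 3 members, Itgb6, Tspan8 and Cd37, which is 8.82% of the members tested against 5.82% of all genes tested. All 3 had higher values in knockout, as did 3.47% of all genes tested, while 2.35% had lower ones. The groups did not overlap for the same 3 of 34 members, against 10.3% of all genes tested, 5.91% with the knockout higher and 4.43% with it lower. The median log2 fold change, knockout over wild-type, was 0.07 over the 34 members and 0.01 over all genes tested, and 19 members had a fitted value above 0 and 15 below. DESeq2, run as an alternative, called 153 genes, which is 0.902% of the 16964 it adjusted and 0.724% of the 21137 with a count, and 1 member among them, Itgb6. Without wild-type replicate 1 the edgeR p was under 0.05 for 6 members, with Cd81, Itgav and Tspan17 added, and for 1445 of all 15428 genes tested, or 9.37%. Without wild-type replicate 2, the library with neutrophil transcripts, it was so for 4 of 35 members, with Itgb3 added, and for 924 of all 15391 genes tested, or 6.0%.

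The rule on detection bears on these counts. Itgb6, Itgae and Itgb8 had counts in the 3 knockout libraries and in none of the wild-type ones, so they became members through the knockout alone and had to differ. No member was counted in wild-type libraries only. With the members counted in both genotypes, 33 were tested, and 2 of them, 6.06%, had an unadjusted p under 0.05 by edgeR. Of the 54 genes with such names, wild-type replicates 1 to 3 had counts for 34, 33 and 29, and knockout replicates 1 to 3 for 39, 37 and 38. Over the whole table the same libraries had counts for 16393, 16183 and 15244 genes in wild-type and for 17015, 16854 and 16508 in knockout, without overlap between genotypes. The part of this wider detection in the members' counts was not tested.

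**Figure D1:**
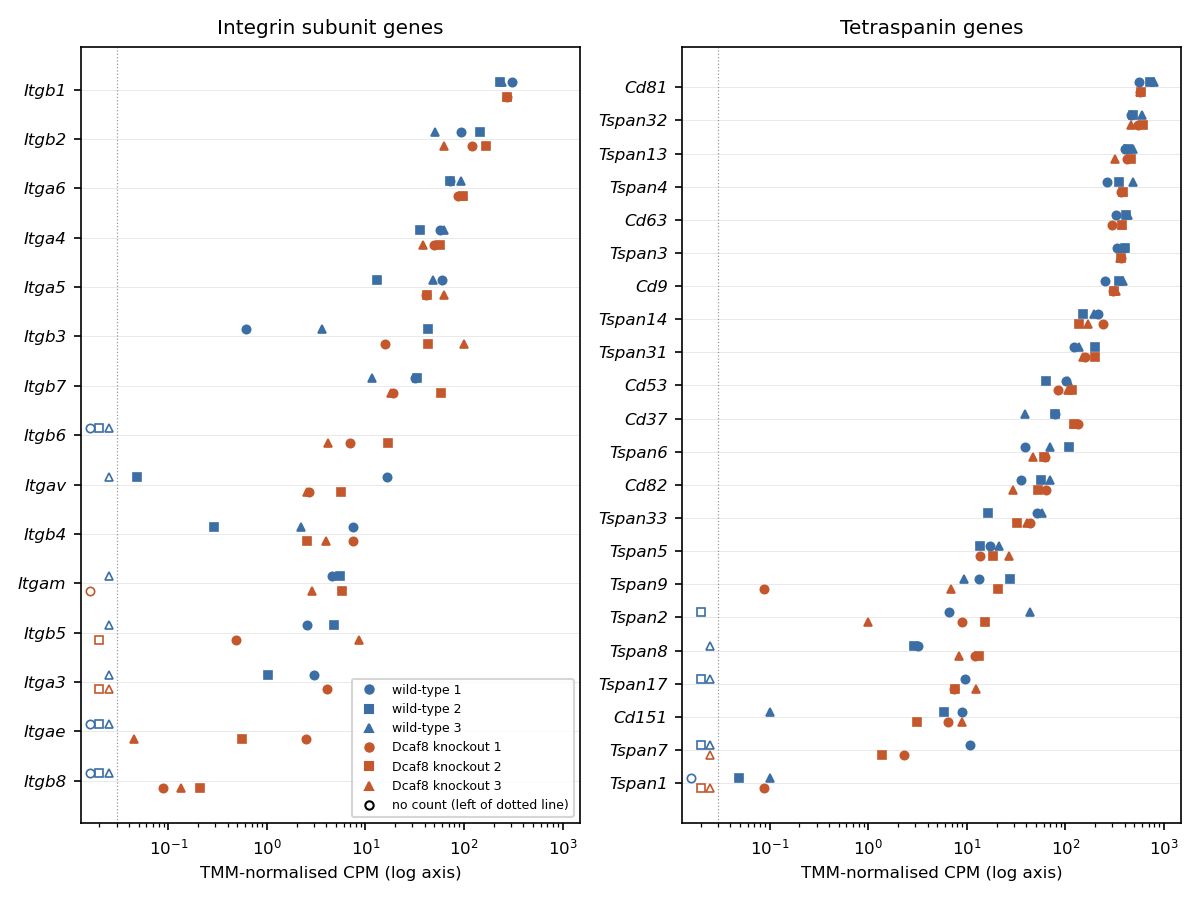
Level of every member in each library, in TMM-normalised CPM on a log axis, integrin genes left and tetraspanin genes right, with 1 marker per library and open markers for libraries with no count. The 11 members with a mean above 100 CPM have counts in every library, while most members below 10 CPM lack a count in at least 1 library.

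The promoters of the 3 members with an unadjusted p under 0.05 are shown because they carry the differences described next. They come from RefSeq, build GRCm38.p6, from 250 bases before to 50 after the most upstream start. Capitals mark the letters GGAA on either strand, the core of ETS family sites. Itgb6 lies at chr2:60722554-60722853 on the minus strand, Tspan8 at chr10:115817034-115817333 on the plus strand and Cd37 at chr7:45238790-45239089 on the minus strand.
Itgb6: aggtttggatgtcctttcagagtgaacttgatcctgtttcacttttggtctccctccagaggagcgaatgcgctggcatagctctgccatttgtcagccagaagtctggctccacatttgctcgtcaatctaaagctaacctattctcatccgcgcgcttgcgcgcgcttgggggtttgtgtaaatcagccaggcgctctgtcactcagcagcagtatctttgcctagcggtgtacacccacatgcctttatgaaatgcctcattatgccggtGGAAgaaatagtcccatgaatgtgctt
Tspan8: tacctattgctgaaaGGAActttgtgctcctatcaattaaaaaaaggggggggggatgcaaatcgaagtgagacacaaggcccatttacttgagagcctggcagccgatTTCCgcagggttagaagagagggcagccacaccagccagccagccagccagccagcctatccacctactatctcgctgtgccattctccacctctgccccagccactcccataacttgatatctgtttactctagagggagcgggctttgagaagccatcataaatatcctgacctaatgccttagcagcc
Cd37: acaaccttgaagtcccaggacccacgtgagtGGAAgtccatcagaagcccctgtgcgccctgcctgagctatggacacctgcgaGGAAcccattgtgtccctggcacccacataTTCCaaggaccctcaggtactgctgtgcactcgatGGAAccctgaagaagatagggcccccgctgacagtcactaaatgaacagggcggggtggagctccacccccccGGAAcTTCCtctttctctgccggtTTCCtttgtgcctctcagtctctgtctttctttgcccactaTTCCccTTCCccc

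The Cd37 window held 9 GGAA matches, the Tspan8 window 2 and the Itgb6 window 1, against a median of 3 over the most upstream windows of 27025 genes, of which 95.96% held at least 1. Other motifs were searched on both strands. The GATA motif AGATAA occurred in 11.4% of the 27025 windows. The RUNX motif TGTGGT occurred in 16.9% of them. The AP-1 motif TGACTCA occurred in 5.17% of them. None of the 3 printed windows held any of these letters. A window was at hand for 32 of the 37 members, all but Itga6, Itgae, Itgb2, Itgb3 and Itgb4. CpG dinucleotides, which mark promoters of broadly expressed genes, numbered a median of 18 in the 21 members with counts in all 6 libraries and 17 in 11 members counted in 3 to 5. In 13 genes of the name pattern counted in 0 to 2 libraries the median was 7, which was also the median of the 27025 windows. Tspan32 had the lowest number among the 10 members above 100 CPM with a window, 2. These are descriptions of sequence windows, and no test was made on them.

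Of the 13 integrin genes tested, 10, among them Itgb6, had a fitted value above 0 and 3 below, with a median log2 fold change of 0.25 against 0.01 over all genes tested. Among beta subunits, Itgb1, the common partner of most alpha subunits, had the highest CPM of the integrin members in each library. Itga2b, which the rule leaves out, stood above it in all 6. Itgb1 stood at 309.9, 232 and 241 CPM in wild-type and 271, 274 and 276 CPM in knockout replicates 1 to 3, and its wild-type values enclosed the knockout ones. The log2 fold change was 0.07 ± 0.15 (SE), with an edgeR adjusted p of 0.986. Itgb1 alone took 35.4 to 47.04% of the summed level of the integrin members. That sum was 659, 587 and 514 CPM in wild-type and 628, 772 and 678 CPM in knockout replicates 1 to 3, and the genotypes overlapped.

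Itgb6 encodes the beta6 subunit, which pairs with alphav in epithelia and binds latent TGF-beta. It had 0 counts in each wild-type library and stood at 6.97, 16.8 and 4.16 CPM in knockout replicates 1 to 3, the lowest of these from 92 counts. Taking 3 counts per library as the floor for counting error, a count of 0 corresponds to up to 0.169 CPM. The knockout mean of 9.33 ± 6.66 CPM (SD, n = 3) was 60.0 times the mean wild-type floor. Without knockout replicate 2 it was 35.8 times that floor, and the lowest knockout library was 24.6 times the highest wild-type floor. Intervals and floors cover counting error only. An amplified library can also miss a gene, so these folds are not lower limits. Itgav, for instance, had 291, 1 and 0 counts in wild-type replicates 1 to 3. Itgb6 became a member through its knockout counts alone, so its separation follows from the detection rule. Itgb6 is named after its values were seen, since its mean of 4.66 CPM lies below the limit of 5 CPM set for named genes. Its edgeR adjusted p was 0.744 and its unadjusted p 0.0111, while DESeq2 gave an adjusted p of 3.97e-06. The 7 listed stromal markers summed to 0.15 to 5.23 CPM in wild-type and 2.84 to 20.01 CPM in knockout libraries, with Cxcl12, Lepr and Pdgfra at 0 in all 6. Pdgfrb, the 1 marker tested, stood at 0, 1.94 and 0 CPM in wild-type and 12.0, 2.78 and 4.93 CPM in knockout libraries, without overlap (edgeR adjusted p = 0.771). Col1a2 stood at 0, 0.0485 and 0 CPM in wild-type and 7.58, 0 and 5.56 CPM in knockout libraries. Adipoq was counted in wild-type replicate 1 only, at 5.24 CPM. The part of stromal RNA in the Itgb6 values was not tested.

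Itgb3, which pairs with alphaIIb on megakaryocytes and platelets and with alphav elsewhere, varied widely between libraries. It stood at 0.619, 43.6 and 3.60 CPM in wild-type and 15.7, 43.0 and 99.8 CPM in knockout libraries, so that the second library of each genotype was about level. The log2 fold change of 1.68 ± 1.00 (SE) had an edgeR adjusted p of 0.918, and it moved to 4.61 when wild-type replicate 2 was left out and to 0.71 when knockout replicate 3 was. Its partner gene Itga2b, no member here, was steadier, at 373, 492 and 596 CPM in wild-type and 426, 406 and 643 CPM in knockout libraries. The platelet chemokine gene Pf4 was highest in knockout replicate 3 too, at 325 CPM, but stood at 121, 204 and 223 CPM in wild-type and 120.5 and 103 CPM in the other knockout libraries. The 10 listed megakaryocyte and platelet markers summed to 708, 1082 and 1153 CPM in wild-type and 912, 815 and 1268 CPM in knockout libraries, with overlap. Among the knockout libraries, Gp5, Ppbp, Clec1b and Gp1bb were also highest in replicate 3, while Gp1ba, Gp9 and Treml1 were lowest there. The part of platelet-lineage RNA in the Itgb3 values was not tested.

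Itgb2, the beta subunit shared by the leukocyte integrins, stood at 92.2, 146 and 51.2 CPM in wild-type and 122, 168 and 62.2 CPM in knockout libraries. Both genotypes spanned more than their difference (log2 fold change 0.24 ± 0.46, SE, edgeR adjusted p = 0.981). Its highest wild-type value came from replicate 2, the library with neutrophil transcripts. The log2 fold change was 0.68 without that library and -0.067 without knockout replicate 2. Itgb7, which pairs with alpha4 for homing to the gut and with alphaE, stood at 32.1, 33.4 and 11.8 CPM in wild-type and 19.1, 57.9 and 18.3 CPM in knockout libraries, and the groups overlapped. Itgb4, the laminin-binding partner of alpha6 in hemidesmosomes, and Itgb5, a vitronectin-binding partner of alphav, did not exceed 7.54 and 8.64 CPM. Itgb8, another partner of alphav, was counted 2, 3 and 3 times in knockout libraries only and was not tested.

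Among the alpha subunits that are members, thus without Itga2b, Itga6, which marks stem and progenitor cells and binds laminin, had the highest CPM. It stood at 72.4, 71.7 and 93.2 CPM in wild-type and 86.5, 98.3 and 97.8 CPM in knockout replicates 1 to 3, and only the third wild-type library reached into the knockout range. The log2 fold change was 0.25 ± 0.21 (SE), with an edgeR adjusted p of 0.963. Itga4, the alpha4 subunit that binds VCAM-1 and fibronectin, stood at 57.3, 35.7 and 62.6 CPM in wild-type and 49.3, 57.2 and 38.5 CPM in knockout libraries, with full overlap (log2 fold change -0.12 ± 0.32, SE). Itga5, the alpha subunit of the main fibronectin receptor, stood at 60.1, 13.1 and 48.2 CPM in wild-type and 40.9, 42.3 and 62.8 CPM in knockout libraries. Its low value came from wild-type replicate 2, the library with neutrophil transcripts, and the log2 fold change of 0.31 ± 0.50 (SE) was -0.13 without it.

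Itgav, the alphav subunit that binds RGD motifs with several beta partners, was high in a single library. It stood at 16.4, 0.0485 and 0 CPM in wild-type and 2.67, 5.71 and 2.53 CPM in knockout libraries, so the knockout values lay between the extremes of wild-type. The log2 fold change of -0.58 ± 1.29 (SE) was 6.76 without wild-type replicate 1, with edgeR adjusted p-values of 0.986 and 0.466. Itgam, the alpha subunit of Mac-1 on myeloid cells, stood at 4.62, 5.57 and 0 CPM in wild-type and 0, 5.78 and 2.89 CPM in knockout libraries. The Itgam log2 fold change of -0.44 ± 1.16 (SE) was 0.18 without wild-type replicate 2, the library with neutrophil transcripts. It was 0.25 without knockout replicate 1. In the annotation used for exon lengths, 68.7% of the Itgam exon bases are shared with Gm49368, a gene model on the same strand. Gm49368 had no count, so the level of Itgam is uncertain. Itga3, a laminin-binding subunit, did not exceed 4.12 CPM, and Itgae, the partner of beta7 that binds E-cadherin, had 57, 8 and 1 counts in knockout libraries.

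Of 24 textbook integrin pairs, 6 had both subunits counted in all 6 libraries: alpha4-beta1, alpha5-beta1, alpha6-beta1, alpha4-beta7, alpha6-beta4 and alphaIIb-beta3. The other integrin genes of the name pattern missed the detection rule. Itgal, the alpha subunit of LFA-1, had 82 counts in wild-type replicate 2 and 196 in knockout replicate 2 and none elsewhere. Itgb2l, which encodes a beta2-like subunit of neutrophils, had 1089 counts in wild-type replicate 2 and none elsewhere. Itgax, Itgad, Itga1 and Itgbl1 had no count in any library. Genes for the collagen-binding subunits alpha2, alpha10 and alpha11 were counted in at most 2 libraries each.

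The tetraspanin genes summed to more CPM than the integrin genes in each library, and of the 21 tested 9 had a fitted value above 0 and 12 below, with a median log2 fold change of -0.06. Their sum was 3322, 3866 and 4329 CPM in wild-type and 3708, 3894 and 3523 CPM in knockout replicates 1 to 3, and the knockout values lay inside the wild-type range. The 6 most abundant, Cd81, Tspan32, Tspan13, Tspan4, Cd63 and Tspan3, took 69.2 to 73.7% of that sum. Levels were also divided by exon length for comparison between genes. On that scale the order was Cd81 at 219.6 CPM per kb, Tspan4 at 170.5, Tspan13 at 170.2 and Cd9 at 157, with Itgb1 in place 10 at 65.5 CPM per kb and Itga6, the highest alpha subunit among the members, at 9.60. Tspan4 and Tspan13 did not differ beyond their spread over libraries.

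Among the tetraspanins with CD names, Cd37, which is expressed on B cells and other leukocytes, had the smallest p. It stood at 77.7, 78.7 and 38.8 CPM in wild-type and 134, 121 and 122 CPM in knockout replicates 1 to 3, and each knockout library lay above each wild-type library. Cd37 averaged 65.1 ± 22.8 and 126 ± 7.08 CPM (SD, n = 3 per group). The log2 fold change was 0.95 ± 0.28 (SE), with an edgeR unadjusted p of 0.00998 and an adjusted p of 0.739. Without wild-type replicate 3, the lowest library, it was 0.69. DESeq2 gave an adjusted p of 0.202. The 9 listed B cell markers summed to 66.0, 86.2 and 100.1 CPM in wild-type and 96.6, 101.8 and 82.01 CPM in knockout libraries, which overlapped, most of it from Cd79b, while Ms4a1, Ebf1 and Pax5 were at 0 in all 6. The 7 listed T cell markers summed to 13.4, 9.87 and 26.7 CPM in wild-type and 32.2, 27.2 and 30.9 CPM in knockout libraries, without overlap. Most of it came from Lck, while Cd3e, Cd3g and Cd8a were at 0 in all 6. Cd4 was at 0 in wild-type and at 4.56, 4.25 and 0 CPM in knockout libraries. Trac stood at 0, 0.0485 and 0 CPM in wild-type and 0, 0.487 and 1.13 CPM in knockout libraries. Cd3d was counted in wild-type replicate 3 only, at 1.73 CPM. The part of such cells in the Cd37 and Itgae values was not tested.

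Cd81, a broadly expressed partner of integrins and immune receptors and the member with the highest level, had a lower mean in knockout. It stood at 559, 719.7 and 792 CPM in wild-type and 568, 584 and 570.5 CPM in knockout libraries. The knockout libraries were close to each other and above the lowest wild-type one. The log2 fold change was -0.27 ± 0.14 (SE), with an edgeR adjusted p of 0.881, and it moved to -0.40 when wild-type replicate 1 was left out and to -0.15 when wild-type replicate 3 was. Cd63, a tetraspanin of lysosomes and secreted vesicles, stood at 328, 411 and 429 CPM in wild-type and 300.3, 373 and 375 CPM in knockout libraries. Its log2 fold change was -0.16 ± 0.15 (SE).

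Cd9, found on platelets and on stem cells, stood at 255, 346 and 388 CPM in wild-type and 304, 308 and 325 CPM in knockout libraries, with overlap. Cd53, a tetraspanin of leukocytes, was found at 102, 64.2 and 107 CPM in wild-type against 83.2, 117 and 106 CPM in knockout. Cd82, known as a metastasis suppressor and linked to stem cell quiescence, was found at 35.7, 56.7 and 69.2 CPM in wild-type against 64.0, 52.9 and 29.7 CPM in knockout. Cd151, a partner of the laminin-binding integrins, was found at 9.01, 5.87 and 0.101 CPM in wild-type against 6.44, 3.13 and 9.0 CPM in knockout. None of these 4 separated the genotypes, and their log2 fold changes, from -0.16 to 0.43, were within 1 SE of 0.

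**Figure D2:**
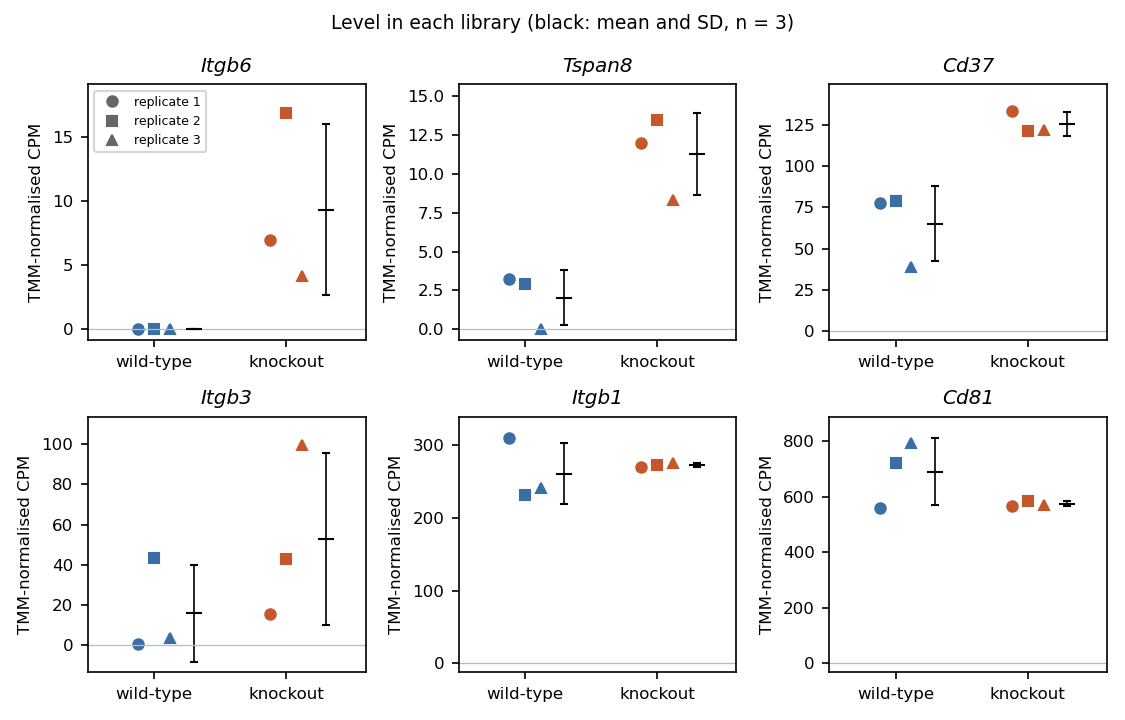
Level of 6 members in each library, in TMM-normalised CPM on linear axes, with the mean and SD of each genotype in black (n = 3). Itgb6, Tspan8 and Cd37 separate the genotypes, Itgb3 overlaps over a wide range, and Itgb1 and Cd81 stay close together in knockout at 271 to 276 and 568 to 584 CPM.

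Tetraspanins of the TspanC8 group carry the protease ADAM10 to the cell surface. Tspan14 was the most abundant of them, at 215, 151 and 195 CPM in wild-type and 242, 137 and 170.2 CPM in knockout libraries (log2 fold change -0.01 ± 0.24, SE). Tspan33, also known from erythroid and activated B cells, stood at 51.8, 16.2 and 57.3 CPM in wild-type and 43.8, 32.3 and 40.6 CPM in knockout libraries. Its lowest value came from wild-type replicate 2. Tspan5 stood at 13.7 to 26.7 CPM. Tspan17 stood at 9.51, 0 and 0 CPM in wild-type and 7.36, 7.66 and 12.3 CPM in knockout libraries, so the first wild-type library lay among the knockout ones. Its log2 fold change of 1.66 ± 1.10 (SE) had an edgeR adjusted p of 0.923. Leaving out the second or the third wild-type library gave 1.03 or 1.06, and leaving out the first gave 10.53, with both remaining wild-type libraries at 0. Adam10 itself stood at 189 and 176 CPM on average, with a log2 fold change of -0.08.

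Of the remaining tetraspanins, Tspan8, best known from epithelia and tumours, had the smallest unadjusted p of all members, 0.00903 by edgeR (adjusted p = 0.739). It stood at 3.21, 2.91 and 0 CPM in wild-type and 12.0, 13.4 and 8.32 CPM in knockout replicates 1 to 3, without overlap. Tspan8 averaged 2.04 ± 1.77 and 11.2 ± 2.63 CPM (SD, n = 3 per group), and the log2 fold change was 2.44 ± 0.76 (SE). The unadjusted p was above 0.05 with limma-voom, with the legacy fit and with DESeq2, which gave 0.0867 (adjusted p = 0.797). These levels rest on 57, 60 and 0 counts in the wild-type libraries and on 273, 193 and 184 in the knockout ones.

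Tspan32, a tetraspanin of blood cells, stood at 468, 484 and 602 CPM in wild-type and 547, 618 and 467 CPM in knockout libraries (log2 fold change 0.07 ± 0.15, SE). Tspan13 was found at 403, 430.5 and 487 CPM in wild-type against 422, 464 and 319 CPM in knockout. Tspan3 stood at 334 to 399 CPM over all 6 libraries and Tspan4, a component of migrasomes, at 262 to 485 CPM. These 4 abundant genes varied by 1.19-fold (Tspan3) to 1.85-fold (Tspan4) between the lowest and the highest library. Tspan6 stood at 38.6, 108 and 70.2 CPM in wild-type and 62.3, 60.3 and 46.7 CPM in knockout libraries, with the knockout values inside the wild-type range. Tspan31 stood at 122 to 199 CPM. In the annotation used for exon lengths, 29.2% of its exon bases overlap Cdk4 on the opposite strand, a gene with 65020 counts. No source used here says whether counting used strand, so reads of the pair cannot be told apart. Exons of 12 members overlapped a gene on the opposite strand, among them Tspan4 with Chid1 (13.4% of its exon bases) and Cd9 with Gm26728 (10.7%).

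Lower tetraspanins were counted unevenly. Tspan9, a platelet tetraspanin, stood at 13.3, 27.6 and 9.39 CPM in wild-type and 0.0877, 20.7 and 6.92 CPM in knockout libraries, the lowest from 2 counts. Tspan2 stood at 6.53, 0 and 44.1 CPM in wild-type and 9.03, 15.5 and 0.995 CPM in knockout libraries. Tspan9 had a log2 fold change of -1.13 ± 0.89 (SE) that was -0.44 without knockout replicate 1 and -2.30 without the second knockout library, while leaving out the second wild-type library gave -0.54. Tspan2 had one of -1.15 ± 1.24 that was 1.34 without wild-type replicate 3. Tspan7 was counted in 3 libraries at up to 10.8 CPM, and Tspan1 had at most 2 counts in any library. Tspan10, Tspan11 and Tspan15 had no count.

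**Figure D3:**
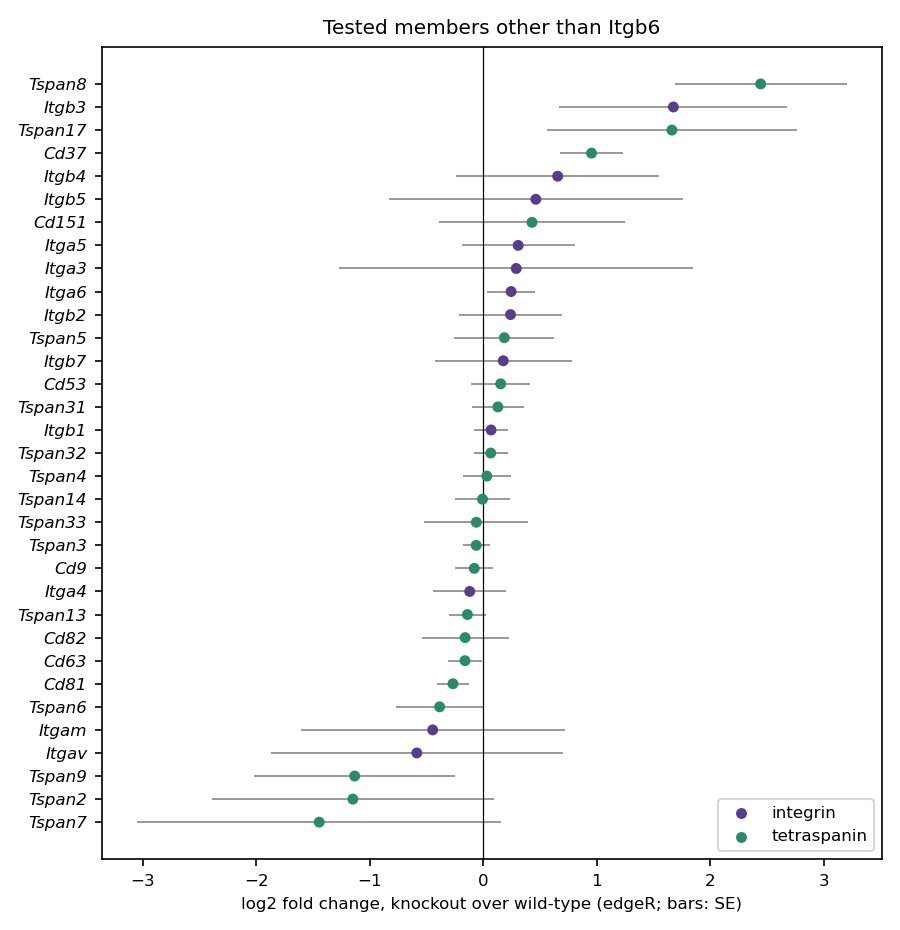
Log2 fold change, knockout over wild-type, of the 33 tested members other than Itgb6, with bars of 1 SE from edgeR. Of the 34 tested members 24 lie within 0.5 of 0, and wide bars belong to members with low levels.

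How far the libraries of 1 genotype agreed depended on the level. For the 11 tested members with a mean of at least 100 CPM, the coefficient of variation (CV) within genotypes had a median of 14% and ranged from 5.60% for Tspan3 to 47.2% for Itgb2. None of these lacked a count in any library, and their log2 fold changes lay between -0.27 and 0.24. For the 13 members between 10 and 100 CPM the median CV was 33.6%, with Itgb3 at 116% and Tspan2 at 113% at the top. For the 10 members below 10 CPM it was 97.8%, and 8 of these 10 lacked a count in at least 1 library, against 43.8% of all 4517 genes tested in that range. Medians over all genes tested were 15.8%, 33.5% and 70.9% in the same ranges. The members were selected by detection in 3 libraries, so the lowest range is not a like-for-like comparison.

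**Figure D4:**
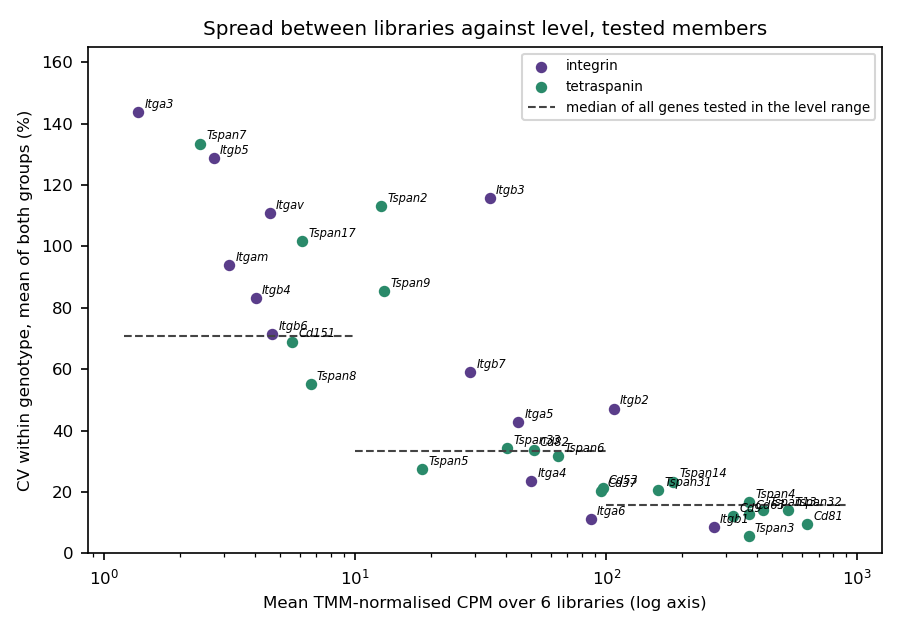
CV within genotypes (mean of both groups, in percent) against the mean level in TMM-normalised CPM on a log axis, for the tested members, with the median of all genes tested in each level range as dashed lines. Itgb3 with 116% and Tspan2 with 113% are the highest between 10 and 100 CPM, and Itgb2 with 47.2% stands above the other members of its range.

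Related genes of both families, in 3 lists, were read in the same fit. Of 34 genes of integrin adaptors and signalling (talins, kindlins, focal adhesion kinases and their partners) 25 were tested, 0 passed in either direction, and 15 had fitted values above 0 and 10 below (median log2 fold change 0.09). The 2 with the smallest p were Actn4, an actin cross-linker, and Fyn, a Src family kinase that signals from integrins. Fyn stood at 62.3 ± 27.7 and 100.2 ± 19.2 CPM and Actn4 at 202 ± 37.1 and 297 ± 50.04 CPM (SD, n = 3 per group). Of 32 integrin ligands 14 were tested, 0 passed, and 10 had fitted values above 0 and 4 below (median log2 fold change 0.29). Tgfb1, whose latent form alphav-beta6 and alphav-beta8 bind, stood at 3.04 ± 0.277 and 8.38 ± 2.71 CPM, and the laminin chain gene Lamc1 at 4.89 ± 6.07 and 18.4 ± 8.32 CPM. Their edgeR adjusted p was 0.837 for each.

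Of 17 tetraspanin partners 14 were tested, 0 passed, and 5 had fitted values above 0 and 9 below (median log2 fold change -0.08). Ifitm1, an interferon-induced membrane protein that associates with CD81, stood at 725 ± 81.0 and 894 ± 159 CPM, and Pi4k2b, a lipid kinase of a family that tetraspanins recruit, at 56.2 ± 8.93 and 40.4 ± 3.02 CPM (SD, n = 3 per group). In CPM of the total count, the partner list summed to 3892 to 3970 in wild-type and 4028 to 4336 in knockout libraries, without overlap. With TMM factors the sums of the genotypes overlapped, wild-type replicate 2 lying above knockout replicate 1. No test was made on these sums. DESeq2 called 0 genes of the 3 lists.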

How the data were processed

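The authors deposited raw gene counts of RNA-seq for 6 libraries, each in its own column. Trimmomatic 0.39, HISAT2 2.2.1, Picard 2.26.1, HTSeq 1.99.2, DESeq2 1.38.3 and build mm39 are named, without roles, per the submitters' processing notes. No source used here states the annotation release. The cDNA of 50 cells was amplified before tagmentation, per the labels' protocols, and no molecular identifiers are named, so a low gene can be missed in a library. Groups and replicate numbers came from the labels. The design text names 3 mice per genotype, so each library was taken as 1 mouse.

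Gene types, exon lengths and exon overlaps came from GENCODE M21 (GRCm38). Symbols came from a separate list of gene names, where 94.1% of identifiers, holding 99.9% of the counts, matched. The test was edgeR 4.0.16 (R 4.3.3) with filterByExpr (minimum count 10, minimum total 15), TMM factors and a robust quasi-likelihood fit (legacy off). Genotype was the only term. The fit was also run on simulated data with 200 changed genes, and the outcome is not given here. SEs were derived from the F statistic. Alternatives were upper-quartile and RLE factors, a fit without a filter, one with 5 CPM required in 3 libraries, limma-voom 3.58.1 with sample weights, DESeq2 1.42.0, the legacy fit, the replicate number as a block and each library left out. DESeq2 ran on all genes with a count; DESeq2 on the filtered genes, and DESeq2 without each library for the members, were added after seeing the data.

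Members, lists and tests were chosen with earlier results of these data known. Values per library are given for the 8 members with the highest mean, of which Tspan3 and Tspan4 are given as ranges. Such values are also given for up to 6 members per direction with the smallest p among those averaging 5 CPM or more. The same holds for 19 fixed genes, of which Itgal missed the detection rule. Of each related list, the 2 genes with the smallest p are given as mean and SD. Itgb6, further members below the limits and Itga2b and Adam10 were added after their values were seen. So were the genes named from marker lists, such as Pf4, Ltf, Slamf1 and Prtn3.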

Additional observations from a re-analysis of the deposited data

How the results depend on the processing

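Of the alternatives run, those with edgeR and limma-voom called 0 genes and 0 members, and those with DESeq2 called some. DESeq2 called 153 genes, among them 1 member, the integrin gene Itgb6, and on the genes that passed the count filter 68 genes with the same 1 member. With single libraries left out, DESeq2 called 1 to 4 members: Itgb6 each time, with Cd81, Itgav and Tspan17 without wild-type replicate 1, Itgb3 without wild-type replicate 2 and Cd37 without wild-type replicate 3. In those fits DESeq2 called 785, 422 and 397 genes of the whole table (3.81%, 2.05% and 1.91%), and 288 to 353 without a knockout library, so its calls rose throughout the table. Itgb6 was a member through the knockout libraries alone. Dcaf8 had an edgeR adjusted p of 0.739 and passed in DESeq2, at a log2 fold change of -2.32 on all genes and on the filtered ones. Members at an unadjusted p under 0.05 numbered 3 to 6 over edgeR fits without 1 library, the 6 arising without wild-type replicate 1 by Cd81, Itgav and Tspan17, against 714 to 1445 of all genes (4.67% to 9.37%), the highest in that same fit, and the median log2 fold change of the members ranged from 0.017 to 0.19.

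The sign of small differences depended on single libraries. Over those edgeR fits the log2 fold change ranged from -0.16 to 1.10 for Cd151, -0.053 to 0.29 for Cd53, -0.46 to 0.13 for Cd82, -0.23 to 0.057 for Cd9, -0.34 to 0.050 for Itga4, -0.13 to 0.69 for Itga5, -1.25 to 0.25 for Itgam, -1.21 to 6.76 for Itgav, -0.0086 to 0.21 for Itgb1, -0.067 to 0.68 for Itgb2, -0.45 to 0.48 for Itgb7, -0.25 to 0.0078 for Tspan13, -1.77 to 1.34 for Tspan2, -0.029 to 0.19 for Tspan32, -0.46 to 0.25 for Tspan33, -0.16 to 0.29 for Tspan4 and -0.67 to 0.032 for Tspan6. With limma-voom and sample weights it was 0.050 for Itga4, 3.56 for Itgav, 2.94 for Tspan2 and 0.31 for Tspan33. The adjusted p was above 0.05 for each of these members in these edgeR and limma-voom fits.

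With the replicate number as a block 0 genes were called, and 3 members, as many as without it, had an unadjusted p under 0.05; same-numbered libraries deviated with correlations of 0.059, -0.038 and 0.006, so the numbers were not taken as pairs. The block changed no call. The common coefficient of variation over genes was 75.1%. Requiring 5 counts in 3 libraries left 34 members and a count in all 6 libraries 25.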
